A study of Saccharomyces cerevisiae with 59 samples.

Results

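The comparison described here sets the 5 libraries titled H6P against the 9 libraries made from 10 ng of RNA, out of 59 bulk libraries of budding yeast (Saccharomyces cerevisiae). Members were chosen by the first part of their titles, and no measured value entered the choice. The H6P libraries carry the numbers 11, 12, 14, 15 and 16 and no stated input amount in their labels. Both groups came from 1 strain, S288C, grown from a single clone in rich medium, stripped of the cell wall with Zymolyase to give spheroplasts, and held in sorbitol medium without amino acids (amino acid starvation, AAS) for at least 30 min and up to 5 h. No group carried another genotype or agent, and no unstarved library was analysed here. RNA was purified from the cell population and made into libraries as for single cells, with oligo-dT priming, tailing and PCR and no molecular identifiers. Synthetic ERCC spike-in RNA was added in proportion to the stated input, and the labels do not say how much went into the H6P reactions.

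The standing of the H6P group limits every comparison below. The mapping summary of the study lists each H6P library under an input amount of its own, that of H6P11 being the same as for the libraries it is compared with here. It places all of them in the first sequencing batch, and every library with a stated amount in its title in the second. Batch and the H6P name therefore cannot be told apart and no value within a batch could be given. The listed amounts differ among the H6P libraries and were used in no test. The H6P libraries are not stated replicates of 1 condition. Their values are given library by library. The labels do not say that libraries came from separate cultures, so a p-value speaks only to how these libraries vary, in ways that may be technical. In bulk RNA, fewer cells expressing a gene and less RNA per cell cannot be told apart.

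When yeast runs out of amino acids, the kinase Gcn2 senses uncharged tRNA and raises translation of the activator Gcn4, which turns on genes of amino acid synthesis, while transcription of ribosomal protein genes is lowered. Genes that take up and reduce sulfate and build methionine and cysteine follow a separate circuit, in which Met4, a protein that does not bind DNA by itself, is brought to promoters by Cbf1 with Met28 or by Met31 and Met32, and is restrained by the ubiquitin ligase subunit Met30. Cbf1 binds the sequence CACGTG. Glycolytic enzymes and ribosomal proteins are encoded by highly transcribed genes that usually lead the mRNA of growing yeast, and those of ribosomal proteins are short.

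Because the sulfate route gave some of the widest gaps between the groups, the windows around the Cbf1 sequence upstream of 6 of its genes are shown, from the R64 reference sequence of RefSeq. Each runs 5′ to 3′ on the strand of the gene, with CACGTG in capitals. Upstream of MET3 and of SUL2 the sequence occurs 2 times in the 500 bases searched, and the copy nearest the start codon is shown. MET3, MET28 and SUL2 were called higher in H6P libraries, and MET17, CYS3 and SAH1 lower.
MET3, chrX:455867-455896, plus strand: gaccagaaaagtCACGTGtaattttgtaac
MET28, chrIX:384321-384350, minus strand: gggtactgagtgCACGTGacttattttttt
SUL2, chrXII:323224-323253, plus strand: gccgtgtcaggtCACGTGaagagagaaatt
MET17, chrXII:732230-732259, plus strand: aatggcaaatggCACGTGaagctgtcgata
CYS3, chrI:130571-130600, plus strand: taattagccattCACGTGatctcagccagt
SAH1, chrV:237343-237372, minus strand: gatatttctgtgCACGTGatctcgttggct
The letters CACGTG, which read the same on both strands, occurred in the 500 bases before the start codon of 21 of 33 genes of the sulfur list, against 373 of 5978 coding genes with a full window (6.24%). They occurred upstream of 13 of the 18 sulfur genes called higher in H6P libraries, 6 of the 9 called lower and 2 of the 6 others, so genes of both directions carried them. A match is a description of the letters and not of binding.

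H6P libraries were deeper and far more even than 10 ng libraries. Gene totals were 6407797 to 14337575 counts in H6P libraries, against 290434 to 1575402 (median 923503) in 10 ng libraries. At least 5 counts were found for 5786, 5872, 5735, 4504 and 4739 genes in H6P11, H6P12, H6P14, H6P15 and H6P16, against 1692 to 4132 (median 2798) in 10 ng libraries. With each library thinned to 290000 counts, the H6P libraries held 4601, 4817, 4845, 3855 and 4062 genes, against 1618 to 2462 (median 1883) in 10 ng libraries (difference of means 2522, adjusted p = 0.00125). This and the other 14 measures of a whole library were compared with a two-sided exact permutation test and adjusted over the 15. The smallest p that 5 against 9 libraries allow is 0.000999, which becomes 0.00125 after adjustment, and 12 of the measures reached it. Among these was the correlation with the mean 10 ng profile, whose standard is the 10 ng group itself.

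The 10 most abundant genes of a library took 6.40%, 7.81%, 9.18%, 8.21% and 9.23% of the gene counts in the H6P libraries, against 31.3% to 46.0% (median 36.2%) in 10 ng libraries (adjusted p = 0.00125). Weighted by counts, the mean coding length was 2128, 1755, 1618, 1599 and 1595 nt in the H6P libraries, against 1017 to 1194 nt (median 1038 nt) in 10 ng libraries, and the mean GC content was 41.0% to 41.4% against 43.8% to 45.0% (adjusted p = 0.00125 for each). Spike-in RNA made up 0.0919%, 7.72%, 0.0142%, 0.00393% and 0.0113% of the counts in H6P11 to H6P16, against 45.3% to 69.1% (median 66.2%) in 10 ng libraries. No H6P library overlapped the 10 ng range in any of these measures, and H6P12 stood apart from the other H6P libraries in spike-in share. At 100 pg (n = 7) the count-weighted coding length was 1234 to 1603 nt, which reaches the H6P range. The part of spike-in share and evenness in the gene differences below was not tested. Depth was equalised as an alternative in the tests of genes.

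**Figure D1:**
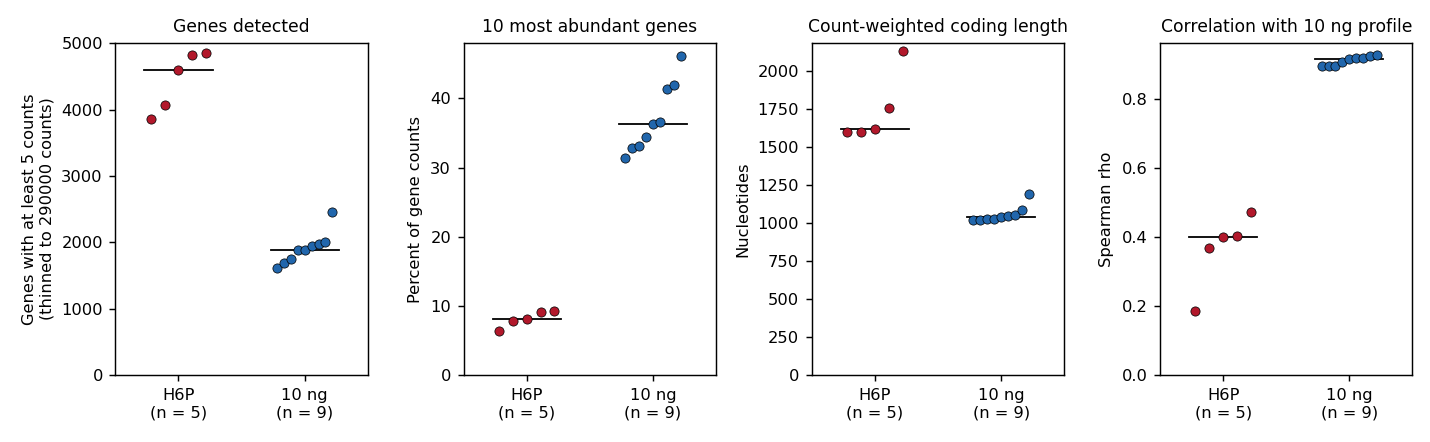
Each point is 1 library, H6P libraries in red (n = 5) and 10 ng libraries in blue (n = 9), and bars are medians; the panels plot genes with at least 5 counts after thinning to 290000 counts, the percent of gene counts in the 10 most abundant genes, the count-weighted coding length in nucleotides, and the Spearman correlation with the mean 10 ng profile. The groups do not overlap in any panel, and H6P11 is the H6P library with the longest coding length (2128 nt) and the lowest correlation (0.19).

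The H6P libraries resembled each other less than the 10 ng libraries did, and resembled the 10 ng libraries little. Over the 4663 genes tested, Spearman correlations were 0.84 for H6P11 with H6P12, 0.76 for H6P11 with H6P14 and 0.84 for H6P12 with H6P14. H6P15 correlated at 0.51 with H6P16, and these libraries correlated at 0.51 to 0.66 with the other H6P libraries. Pairs of 10 ng libraries correlated at 0.85 to 0.95 (median 0.92), and pairs of an H6P with a 10 ng library at 0.13 to 0.54 (median 0.38). Against the mean 10 ng profile at equal depth, the correlation was 0.19, 0.40, 0.47, 0.37 and 0.40 in the H6P libraries and 0.90 to 0.93 in 10 ng libraries, each left out of its own profile (exact permutation test, adjusted p = 0.00125). In the 5 pg libraries (n = 10) this correlation was 0.40 to 0.70, overlapping the H6P range. The 10 ng libraries are themselves the standard of this measure, which favours them, so no conclusion is drawn from that p-value. Depth, base composition and length of the genes are shared by these points, and the correlations are given as a description.

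Across all genes, 2136 of 4663 (45.8%) were higher in H6P libraries and 1150 (24.7%) were lower, by the quasi-likelihood test of edgeR with TMM scaling at a Benjamini-Hochberg adjusted p of 0.05. Without overlap of CPM (a gene's counts scaled to an equal gene total per library) between the groups, 2198 genes (47.1%) were higher and 284 (6.09%) were lower. The filter asked for at least 20 CPM in at least 3 of the 14 libraries, so a gene could pass through H6P libraries alone. For such a gene the filter itself favours a call as higher. Shares called higher, of lists and of all genes, include such genes. A few genes took a large part of the 10 ng counts, and the scaling decided where 0 lay. The part of those genes in the gap between scalings was not tested. The median log2 fold change of all genes was 1.13 under TMM (1.05 with genes at 0 in all 10 ng libraries set at their lower bound), 1.99 under RLE size factors and 3.45 on plain library totals, and the calls were 2789 higher (59.8%) against 848 lower (18.2%) under RLE and 3676 higher (78.8%) against 378 lower (8.11%) on library totals. All 2136 genes called higher under TMM were called higher under the 3 scalings, whereas 378 of the 1150 called lower were lower under the 3. A call as higher under the 3 scalings therefore adds nothing to the call under TMM. A call as lower under the 3 is the call on library totals. Fold changes below are log2 values of H6P over 10 ng under TMM, with SE, and adjusted p-values are those of edgeR, while CPM are on library totals. With every library thinned to 290000 counts, 2343 genes were higher and 1049 lower, of which 2073 and 1031 were among the calls above. With each library's detection rate at equal depth as a covariate, 213 genes were higher and 191 lower. Genes detected at equal depth did not overlap between the groups (3855 to 4845 in H6P libraries, 1618 to 2462 in 10 ng libraries). The covariate therefore cannot be told apart from the group, and no conclusion is drawn from calls lost or signs changed under it.

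**Figure D2:**
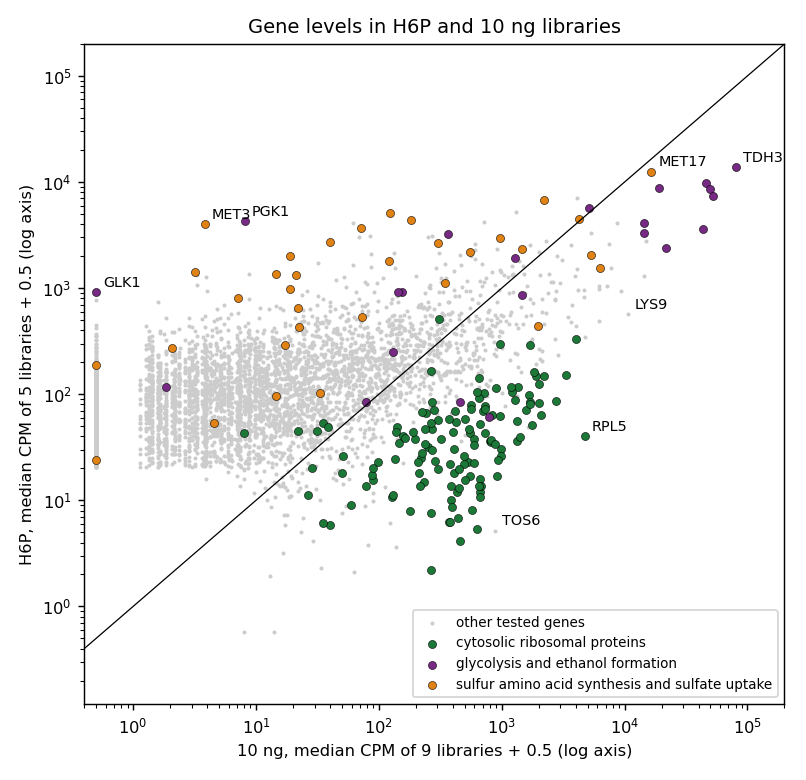
Each point is 1 of 4663 tested genes, with its median CPM in the 5 H6P libraries on the vertical axis and in the 9 10 ng libraries on the horizontal axis (log axes, 0.5 added) and the line of equal CPM. Ribosomal protein genes (green) lie mostly below the line, glycolytic genes (purple) run along and below it at the right with PGK1 and GLK1 far above it, and sulfur genes (orange) lie on both sides.

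Glycolytic genes were among the most abundant of either group and showed wide gaps in both directions. Its 22 genes, with ethanol formation, held 5.67%, 7.09%, 8.62%, 8.10% and 8.71% of gene counts in the H6P libraries, against 30.6% to 45.3% (median 35.4%) in 10 ng libraries (adjusted p = 0.00125). Of the 22, 3 (13.6%) were called higher and 16 (72.7%) lower, against 45.8% and 24.7% of all genes. Under the 3 scalings 12 were lower, against 8.11% of all genes. The glycolytic genes had a median log2 fold change of -3.36, against 1.13 for all genes. TDH3 (YGR192C, chromosome VII, 882812 to 883810), the main glyceraldehyde-3-phosphate dehydrogenase, led both groups with 8225, 12526, 15689, 13810 and 16473 CPM in the H6P libraries, against 56203 to 105591 CPM (median 80752 CPM) in 10 ng libraries (log2 fold change -5.04, SE 0.36, adjusted p = 1.22e-09). Its near-identical copy TDH2 had 1578 to 4618 CPM in H6P libraries, against 37138 to 53100 CPM in 10 ng libraries. Reads that fit both copies make the split between them uncertain, and the ratio of TDH2 to TDH3 was 0.19 to 0.28 in H6P libraries, against 0.50 to 0.66 in 10 ng libraries.

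The enolase ENO2 (-5.54, SE 0.38), the phosphoglycerate mutase GPM1 (-4.93, SE 0.36), the aldolase FBA1 (-3.55, SE 0.29) and the alcohol dehydrogenase ADH1 (-4.32, SE 0.31) were lower in H6P libraries as log2 fold changes, without overlap of CPM and under the 3 scalings. The pyruvate kinase CDC19 overlapped, with 2903 to 6133 CPM in H6P libraries and 3938 to 6315 CPM in 10 ng libraries, and its call as lower held under TMM but not on library totals (log2 fold change -0.068).

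Between these enzymes stands PGK1, which encodes phosphoglycerate kinase, the only such enzyme of yeast. PGK1 (YCR012W, chromosome III, 137746 to 138996) had 5379, 4367, 4282, 4054 and 3952 CPM in the H6P libraries, against 3.32 to 53.3 CPM (median 7.58 CPM) in 10 ng libraries (log2 fold change 6.14, SE 0.44, adjusted p = 1.03e-09). Its neighbours in the pathway were thus among the most abundant genes of the 10 ng libraries while PGK1 itself had 135 counts over all 9 of them. The ratio of PGK1 to TDH3, which no scaling of a library moves, was 0.65, 0.35, 0.27, 0.29 and 0.24 in the H6P libraries, against 4.11e-05 to 0.000949 in 10 ng libraries. In the 1 ng libraries PGK1 had 32.5 to 157 CPM (n = 8), and at 5 pg 3.15 to 628 CPM (n = 10).

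GLK1 (YCL040W, chromosome III, 50838 to 52340), which encodes glucokinase and overlaps the dubious frame YCL042W in the annotation, had 1645, 917, 649, 854 and 946 CPM in the H6P libraries. In the 10 ng libraries it had 3 counts in all and at most 2.17 CPM, so the ratio of the H6P median to the pooled 10 ng level was 2610 with a 95% counting interval of 893 to 12660. TPI1, triose phosphate isomerase, was higher in every H6P library by CPM (1255 to 4364 CPM in H6P libraries, against 237 to 971 CPM in 10 ng libraries) but did not pass the test under TMM (log2 fold change 0.51, SE 0.33, adjusted p = 0.171). It passed under RLE and DESeq2, on library totals (2.77), without H6P11 (0.73) and without 10 ng replicate 5 (0.78). PDC6, a minor pyruvate decarboxylase, had 0.142 to 122 CPM in H6P libraries, against 586 to 1122 CPM in 10 ng libraries (log2 fold change -6.32, SE 0.84).

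**Figure D3:**
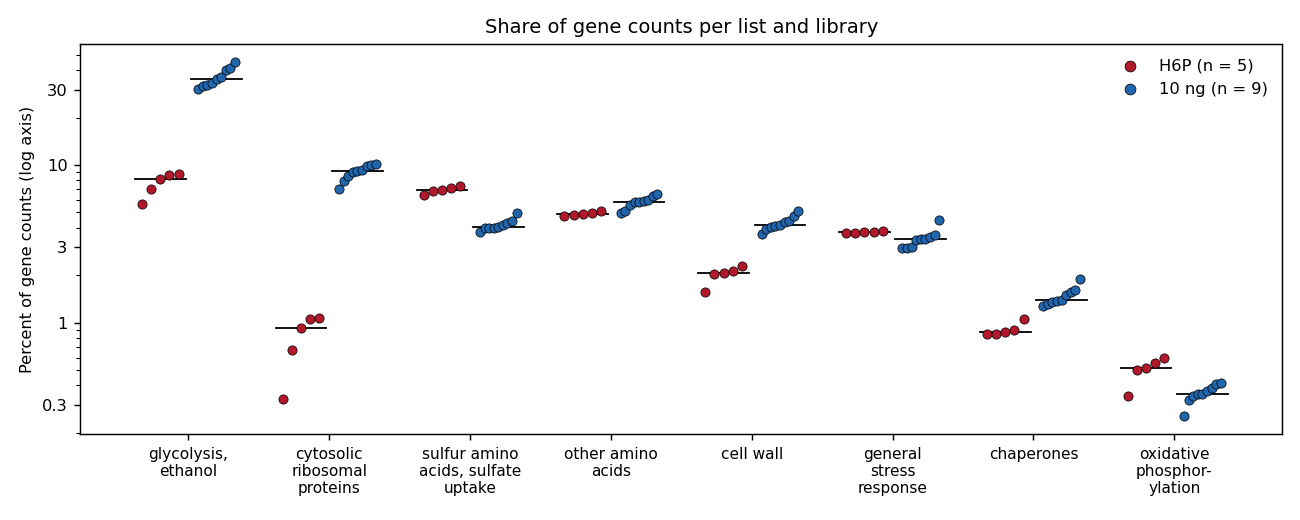
Each point is the percent of gene counts that a gene list took in 1 library (log axis), H6P libraries in red on the left of each pair (n = 5) and 10 ng libraries in blue on the right (n = 9), with bars at the medians. Glycolysis, ribosomal proteins, cell wall and chaperones are lower in every H6P library, the sulfur list is higher in every H6P library (6.43% to 7.41% against 3.78% to 4.99%, though the groups overlap once glycolytic counts are left out), and the other 3 lists overlap.

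Cytosolic ribosomal protein genes were lower as a body. They held 0.326%, 0.668%, 0.921%, 1.06% and 1.06% of gene counts in the H6P libraries, against 7.02% to 10.2% (median 9.19%) in 10 ng libraries (adjusted p = 0.00125). Of 133 tested of 138, 131 (98.5%) were lower, against 24.7% of all genes. Under the 3 scalings 121 were lower, against 8.11% of all genes. The ribosomal protein genes had a median log2 fold change of -5.86, against 1.13 for all genes. By edgeR 0 were higher under TMM or RLE, also at an unadjusted p under 0.05, while 1 was higher by DESeq2 and 3 were on library totals. Most of these proteins come from a pair of near-identical genes, between which reads cannot always be placed, and 16 of 17 single-copy genes and 115 of 116 paired genes were lower.

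RPL5 (YPL131W, chromosome XVI, 303121 to 304014), a single-copy gene for the protein that binds 5S rRNA, had 35.6, 129, 39.5, 98.5 and 20.2 CPM in the H6P libraries, against 3741 to 4997 CPM (median 4743 CPM) in 10 ng libraries (log2 fold change -8.53, SE 0.53, adjusted p = 2.47e-10). RPL3, which lies near the peptidyl transferase center, had 283 to 439 CPM in H6P libraries, against 3529 to 4401 CPM in 10 ng libraries. RPS31, made as a fusion with ubiquitin, had 50.7 to 373 CPM in H6P libraries, against 1275 to 3728 CPM in 10 ng libraries. RPL24A had 6.24, 9.02, 24.8, 0 and 0 CPM in the H6P libraries, against 310 to 577 CPM in 10 ng libraries. Each of these genes stayed below the 10 ng range in every H6P library. At 100 pg (n = 7) RPS31 had 22.0 to 504 CPM and RPL24A 2.50 to 105 CPM, so their low levels were not particular to H6P libraries. RPL5 and RPL3 had 1439 to 3766 and 2967 to 3938 CPM there.

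Other genes of protein synthesis went in both directions. Of 10 tested elongation factor genes, 1 (10%) was higher and 9 (90%) lower, against 45.8% and 24.7% of all genes. On library totals 3 were higher and 3 lower, against 78.8% and 8.11% of all genes. TEF2, a copy of the gene for elongation factor eEF1A that reads cannot fully separate from its twin, had 1048 to 1586 CPM in H6P libraries, against 1877 to 2869 CPM in 10 ng libraries, whereas HEF3, a form of the fungal factor eEF3, had 38.2 to 295 CPM in H6P libraries, against 0 to 3.44 CPM in 10 ng libraries. Of 25 ribosome biogenesis genes tested of 97, 11 (44.0%) were higher and 3 (12%) lower, against 45.8% and 24.7% of all genes. Most of that list did not pass the filter. Of the 25, 2 had 0 counts in all 10 ng libraries and passed only through H6P libraries, so no conclusion is drawn from these shares. RRP7, which takes part in 18S rRNA processing, had 43.0 to 129 CPM in H6P libraries and 0 counts in all 10 ng libraries, so it was at least 122-fold higher against a floor of 3 counts over the group. NOP1, the box C/D methyltransferase fibrillarin, had 0 to 62.1 CPM in H6P libraries, against 73.7 to 145 CPM in 10 ng libraries (log2 fold change -4.64, SE 0.87). Of 52 mitochondrial ribosomal protein genes tested of 69, 5 (9.62%) were higher and 18 (34.6%) lower, against 45.8% and 24.7% of all genes. On library totals 30 were higher and 0 lower, against 78.8% and 8.11% of all genes.

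The share of sulfur amino acid synthesis and sulfate uptake was 6.88%, 7.16%, 7.41%, 6.43% and 6.99% of gene counts in the H6P libraries, against 3.78% to 4.99% (median 4.03%) in 10 ng libraries (adjusted p = 0.00125). Of the counts outside the glycolysis list it took 7.29%, 7.71%, 8.11%, 6.99% and 7.66% in the H6P libraries, against 5.71% to 7.39% (median 6.59%) in 10 ng libraries. H6P11 and H6P15 then lay within the 10 ng range. The difference of means was 0.99 percentage points, against 2.80 over all gene counts (exact permutation test, adjusted p = 0.00963). Shares of smaller lists that were not tested also lay above the 10 ng range in every H6P library. Autophagy and vacuolar proteases (0.812% to 0.997% in H6P libraries, against 0.402% to 0.631% in 10 ng libraries) were among these, as was phosphate starvation (0.237% to 0.337% in H6P libraries, against 0.0726% to 0.118% in 10 ng libraries). Of the 33 sulfur genes, 18 (54.5%) were higher, 9 (27.3%) lower and 6 did not pass, with a median log2 fold change of 1.61, against 1.13 for all genes, of which 45.8% were called higher and 24.7% lower. The 18 higher genes were higher under the 3 scalings, as was every gene called higher under TMM. Of the 9 lower ones 4 were lower under the 3. The genes named below follow the pathway, and those outside the naming rule were added after their values were seen.

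At the entry of the route, MET3 and SUL2 were higher under the 3 scalings. MET3 (YJR010W, chromosome X, 456239 to 457774), the ATP sulfurylase that activates sulfate, had 4010, 3297, 4034, 4019 and 4068 CPM in the H6P libraries, against 0 to 11.4 CPM (median 3.32 CPM) in 10 ng libraries (log2 fold change 7.72, SE 0.47, adjusted p = 1.89e-10). Over the libraries of the other stated amounts its level reached at most 464 CPM, in a 20 pg library. The sulfate permease SUL2 had 1007 to 2020 CPM in H6P libraries, against 7.58 to 37.5 CPM in 10 ng libraries (log2 fold change 3.91, SE 0.28). The permease SUL1 had 664 to 1529 CPM in H6P libraries, against 196 to 594 CPM in 10 ng libraries, yet was called lower under TMM (log2 fold change -0.67, SE 0.21) and had the opposite sign under RLE (0.23) and on library totals (1.69). Without 10 ng replicate 5 that call was lost (-0.44).

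The next steps of the route ran closer together in H6P libraries. MET14, the kinase that makes PAPS, had 1026 to 2938 CPM in H6P libraries, against 200 to 499 CPM in 10 ng libraries (0.42, SE 0.31, edgeR adjusted p = 0.224). It passed under RLE and DESeq2, on library totals and without H6P11 (0.62). MET16, the PAPS reductase, had 1490 to 2846 CPM in H6P libraries, against 399 to 682 CPM in 10 ng libraries, with a log2 fold change of -0.40 (SE 0.24, adjusted p = 0.137) that changed sign under RLE (0.42) and on library totals (1.97) and passed as lower without H6P16 (-0.57). MET5 and MET10 encode the subunits of sulfite reductase, and both were higher, MET5 with 2742 to 7899 CPM in H6P libraries, against 34.4 to 152 CPM in 10 ng libraries (3.49, SE 0.28), and MET10 with 3345 to 6142 CPM in H6P libraries, against 96.4 to 248 CPM in 10 ng libraries (2.70, SE 0.21). MET17 (YLR303W, chromosome XII, 732542 to 733876), which fixes sulfide into homocysteine and overlaps YLR302C, went the other way, with 6626 to 14268 CPM in H6P libraries, against 13982 to 22626 CPM in 10 ng libraries (-2.97, SE 0.27, lower under the 3 scalings).

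Per kilobase of coding length, the medians of MET3, MET14, MET16, MET5, MET10 and MET17 spanned 860 to 9407 CPM in H6P libraries, a 10.9-fold range, against 2.16 to 12388 CPM in 10 ng libraries, a 5728-fold range. The ratio of MET3 to MET17 was 0.61, 0.30, 0.28, 0.32 and 0.29 in the H6P libraries, against 0 to 0.000691 in 10 ng libraries. These steps of the linear route thus lay closer together in H6P libraries, and MET3, at a median of 3.32 CPM, held the low end in 10 ng libraries. H6P libraries were also more even as a whole. Their 10 most abundant genes took 6.40% to 9.23% of gene counts, against 31.3% to 46.0% in 10 ng libraries. The part of that evenness in the narrower range was not tested.

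Downstream, homocysteine is methylated by MET6, activated to S-adenosylmethionine by SAM1 and SAM2, recovered by SAH1, and turned to cysteine by CYS4 and CYS3. MET6 had 4612 to 8630 CPM in H6P libraries, against 1635 to 2788 CPM in 10 ng libraries, with a log2 fold change of -0.82 (SE 0.18) under TMM, 0.054 under RLE and 1.596 on library totals. At 1 ng (n = 8) MET6 had 2979 to 8549 CPM, and at 100 pg (n = 7) 3942 to 7685 CPM. SAM1 was lower (926 to 1700 CPM in H6P libraries, against 5204 to 6408 CPM in 10 ng libraries), whereas SAM2 overlapped (3767 to 4856 CPM in H6P libraries, against 3336 to 5217 CPM in 10 ng libraries) and was called lower under TMM (-2.33) but not on library totals (0.063). The ratio of SAM1 to SAM2 was 0.24 to 0.45 in H6P libraries, against 1.202 to 1.91 in 10 ng libraries, with the caution that reads of these similar genes can be misplaced.

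SAH1 (289 to 495 CPM in H6P libraries, against 1686 to 2669 CPM in 10 ng libraries) and CYS3 (1097 to 2315 CPM in H6P libraries, against 3908 to 7362 CPM in 10 ng libraries) were lower under the 3 scalings. CYS4 was called lower under TMM (-1.68) but had 2100 to 2627 CPM in H6P libraries, against 1062 to 1840 CPM in 10 ng libraries, and a log2 fold change of 0.69 on library totals. STR3, a cystathionine beta-lyase, had 1874, 2095, 1419, 131 and 234 CPM in the H6P libraries, against 0 to 9.52 CPM in 10 ng libraries (5.66, SE 0.58), although with the detection covariate its sign was reversed (-2.85). MET2, which acetylates homoserine, had 399 to 1377 CPM in H6P libraries, against 14.9 to 46.3 CPM in 10 ng libraries (3.00, SE 0.26). Within the pathway SUL2, MET3, MET5, MET10, MET2 and STR3 were thus higher under the 3 scalings, and MET17, SAM1, SAH1 and CYS3 lower under the 3.

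The methionine permeases MUP1 (2461 to 3591 CPM in H6P libraries, against 26.7 to 68.6 CPM in 10 ng libraries) and MUP3 (741 to 917 CPM in H6P libraries, against 4.19 to 10.5 CPM in 10 ng libraries) and the S-methylmethionine permease MMP1 (1224 to 2501 CPM in H6P libraries, against 12.99 to 38.4 CPM in 10 ng libraries) were higher under the 3 scalings. SAM3, the permease for S-adenosylmethionine, had 2296 to 3642 CPM in H6P libraries, against 626 to 1139 CPM in 10 ng libraries, and a log2 fold change of -0.65 under TMM that turned to 0.21 under RLE and 1.73 on library totals. The activator MET4 had 165 to 396 CPM in H6P libraries, against 0 to 3.71 CPM in 10 ng libraries (5.12, SE 0.55). MET28, which joins Met4 and Cbf1, had 171, 185, 242, 419 and 187 CPM in the H6P libraries and 0 counts in all 9 10 ng libraries, so it was at least 487-fold higher. MET32, a zinc finger recruiter of Met4, had 445 to 1279 CPM in H6P libraries, against 13.3 to 39.9 CPM in 10 ng libraries, and MET30 had 742 to 1487 CPM in H6P libraries, against 13.5 to 34.9 CPM in 10 ng libraries. These regulators were higher in H6P libraries without overlap. MET31, the partner of MET32 in recruiting Met4, had 26.9 to 95.4 CPM in H6P libraries, against 0 to 8.38 CPM in 10 ng libraries. It did not pass under TMM (1.15, SE 0.61, adjusted p = 0.0969), but passed under RLE (2.02) and on library totals (3.64).

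**Figure D4:**
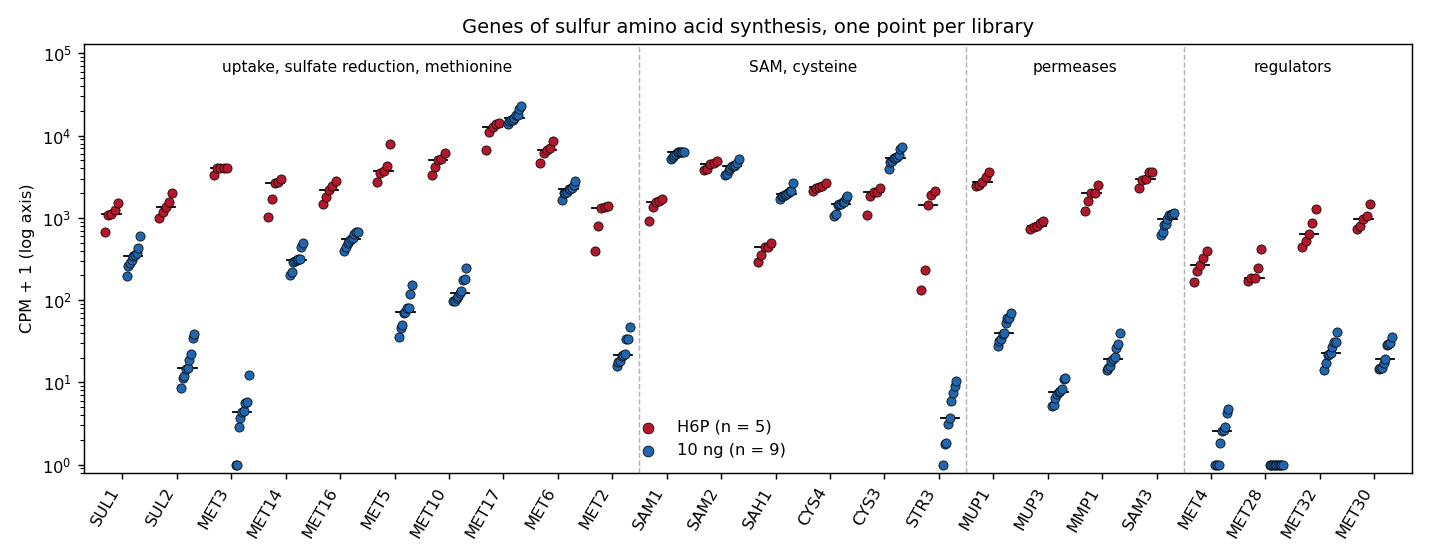
Each point is the CPM of a gene in 1 library, with 1 added and a log axis, H6P libraries in red on the left of each pair (n = 5) and 10 ng libraries in blue on the right (n = 9), with bars at the medians; genes are ordered by pathway step. By CPM, 19 of the 24 genes shown lie above the 10 ng range in every H6P library. MET17 and SAM2 overlap, and SAM1, SAH1 and CYS3 lie below that range. Of all 33 sulfur genes 27 lie above it and 3 below, against 47.1% and 6.09% of all tested genes. SUL1, MET6, MET16, CYS4 and SAM3 have a negative log2 fold change under TMM.

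Synthesis of the other amino acids held 4.73% to 5.07% of gene counts in H6P libraries, against 4.95% to 6.57% (median 5.86%) in 10 ng libraries (adjusted p = 0.00461), and the groups overlapped. With 10 ng replicates 1 to 4 alone the difference of -0.65 percentage points no longer passed (exact permutation test, adjusted p = 0.0635). Of the counts outside the glycolysis list these genes took 5.01% to 5.55% in H6P libraries, against 8.64% to 9.67% in 10 ng libraries, without overlap (difference -3.78 percentage points, exact permutation test, adjusted p = 0.00115). Of 68 genes tested of 71, 21 (30.9%) were higher and 38 (55.9%) lower, against 45.8% and 24.7% of all genes. On library totals 42 were higher and 15 lower, against 78.8% and 8.11% of all genes. LYS9 (YNR050C, chromosome XIV, 714048 to 715388), saccharopine dehydrogenase of lysine synthesis, had 465, 495, 566, 783 and 903 CPM in the H6P libraries, against 8787 to 12871 CPM (median 10598 CPM) in 10 ng libraries (-6.43, SE 0.34, adjusted p = 8.55e-11). The glutamate dehydrogenase GDH1 had 500 to 1205 CPM in H6P libraries, against 5264 to 8344 CPM in 10 ng libraries (-5.41, SE 0.32).

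Genes in the same list went the other way. HOM3, the aspartate kinase that opens the threonine and methionine branch, had 113 to 367 CPM in H6P libraries and 1 count over the 10 ng libraries, a ratio of 1385 with a counting interval of 249 to 54690. ILV3, a dehydratase of branched-chain synthesis, had 93.2 to 361 CPM in H6P libraries and 2 counts over the 10 ng libraries, a ratio of 540 with an interval of 149 to 4457. HIS5, an aminotransferase of histidine synthesis, had 18.7 to 58.4 CPM in H6P libraries and 0 counts in 10 ng libraries, at least 53.3-fold higher. SER33, which opens serine synthesis, had 3682 to 5203 CPM in H6P libraries, against 486 to 927 CPM in 10 ng libraries. It did not pass under TMM (0.28, SE 0.19, edgeR adjusted p = 0.199). It did under RLE and DESeq2, on library totals (2.65) and without 10 ng replicate 5 (0.44).

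The general stress response list took 3.68% to 3.82% of gene counts in H6P libraries, against 2.98% to 4.46% (median 3.37%) in 10 ng libraries, a difference that did not pass (adjusted p = 0.144). It passed without 10 ng replicate 5 (0.48 percentage points, exact permutation test, adjusted p = 0.00179), and outside the glycolytic counts the list was lower in H6P libraries (-1.26 percentage points). Of 46 members tested 10 (21.7%) were higher and 26 (56.5%) lower, against 45.8% and 24.7% of all genes. On library totals 30 of the 46 were higher and 9 lower, against 78.8% and 8.11% of all genes. HSP12, a small membrane chaperone, had 939, 2585, 4106, 4462 and 4244 CPM in the H6P libraries, against 6490 to 10977 CPM in 10 ng libraries (-3.80, SE 0.42). At 100 pg (n = 7) HSP12 had 218 to 2464 CPM. The transaldolase NQM1 had 548 to 1031 CPM in H6P libraries, against 0 to 5.71 CPM in 10 ng libraries (6.98, SE 0.56). NTH1, the trehalase, had 225 to 646 CPM in H6P libraries, against 0 to 1.90 CPM in 10 ng libraries. GDB1, the glycogen debranching enzyme, had 249 to 812 CPM in H6P libraries, against 0 to 3.81 CPM in 10 ng libraries. TFS1, an inhibitor of carboxypeptidase Y, had 545 to 947 CPM in H6P libraries, against 0 to 13.3 CPM in 10 ng libraries. These members and HSP12 separated the groups fully, in opposite directions.

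Cell wall genes held 1.57% to 2.30% of gene counts in H6P libraries, against 3.65% to 5.09% (median 4.19%) in 10 ng libraries (adjusted p = 0.00125). Of 45 tested of 50, 12 (26.7%) were higher and 25 (55.6%) lower, against 45.8% and 24.7% of all genes. On library totals 25 of the 45 were higher and 10 lower, against 78.8% and 8.11% of all genes. The wall proteins SED1 (2126 to 5122 CPM in H6P libraries, against 12607 to 18252 CPM in 10 ng libraries) and CCW12 (456 to 3495 CPM in H6P libraries, against 5184 to 12578 CPM in 10 ng libraries) were lower, the second with a positive sign when the detection covariate was added (0.27). TIP1, a mannoprotein, had 49.0 to 217 CPM in H6P libraries, against 811 to 1397 CPM in 10 ng libraries. TOS6, a predicted wall protein, had 4.68, 12.4, 29.5, 0 and 0.558 CPM in the H6P libraries, against 588 to 1060 CPM in 10 ng libraries (-9.12, SE 1.04). SKN1, which takes part in beta-glucan synthesis, had 449, 296, 286, 322 and 24.5 CPM in the H6P libraries, against 0 to 3.35 CPM in 10 ng libraries.

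Chaperones held 0.847% to 1.06% of gene counts in H6P libraries, against 1.28% to 1.89% in 10 ng libraries (exact permutation test, adjusted p = 0.00125). Of 27 chaperone genes 4 (14.8%) were higher and 19 (70.4%) lower, against 45.8% and 24.7% of all genes. On library totals 10 were higher and 8 lower, against 78.8% and 8.11% of all genes. The cyclophilin CPR1 had 300 to 1793 CPM in H6P libraries, against 5542 to 7898 CPM in 10 ng libraries, and SSB2, a ribosome-bound Hsp70 with a near-identical copy, had 19.7 to 225 CPM in H6P libraries, against 589 to 1164 CPM in 10 ng libraries. Of 34 proteasome genes 4 (11.8%) were higher and 28 (82.4%) lower, against 45.8% and 24.7% of all genes. On library totals 12 were higher and 11 lower, against 78.8% and 8.11% of all genes. PRE10, a core subunit, was lower (188 to 395 CPM in H6P libraries, against 558 to 973 CPM in 10 ng libraries). RPN1, the large base subunit of the regulatory particle, had 206 to 851 CPM in H6P libraries, against 0 to 2.54 CPM in 10 ng libraries. RPN4, the activator of proteasome genes, had 352 to 722 CPM in H6P libraries, against 0.928 to 13.96 CPM in 10 ng libraries. Of 39 nuclear genes of oxidative phosphorylation 4 (10.3%) were higher and 24 (61.5%) lower, against 45.8% and 24.7% of all genes. On library totals 21 were higher and 4 lower, against 78.8% and 8.11% of all genes. The share of oxidative phosphorylation was 0.342% to 0.600% in H6P libraries, against 0.255% to 0.411% in 10 ng libraries (exact permutation test, adjusted p = 0.00856). Leaving out glycolytic counts ended that difference (-0.0074 percentage points), and it did not pass against 10 ng replicates 1 to 4 or 5 to 10 alone (0.18 and 0.13 percentage points, exact permutation test, adjusted p = 0.051 for each). SDH1, the flavoprotein of succinate dehydrogenase, had 12.2 to 168 CPM in H6P libraries, against 0 to 2.33 CPM in 10 ng libraries, and SDH3, its membrane anchor, had 22.9 to 127 CPM in H6P libraries, against 155 to 373 CPM in 10 ng libraries. ATP1, the alpha subunit of ATP synthase, just passed as higher (0.67, SE 0.29, adjusted p = 0.0475), a call that leaving out any of 9 single libraries ended.

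Of 23 ergosterol genes 3 (13.04%) were higher and 16 (69.6%) lower, against 45.8% and 24.7% of all genes. On library totals 7 were higher and 8 lower, against 78.8% and 8.11% of all genes. ERG3 (86.0 to 315 CPM in H6P libraries, against 1312 to 2124 CPM in 10 ng libraries) and ERG6 (141 to 308 CPM in H6P libraries, against 968 to 1805 CPM in 10 ng libraries), which act late in the pathway, were lower. Of 29 targets of nitrogen catabolite repression, the control that silences use of poor nitrogen sources, 15 (51.7%) were higher and 8 (27.6%) lower, near the 45.8% and 24.7% of all genes. The ammonium permease MEP2 was lower (93.7 to 201 CPM in H6P libraries, against 534 to 1238 CPM in 10 ng libraries), the activator GLN3 was higher (49.4 to 245 CPM in H6P libraries, against 0 to 2.51 CPM in 10 ng libraries), and the arginine permease CAN1 had 28.8 to 124 CPM in H6P libraries with 0 counts in 10 ng libraries, at least 82.0-fold higher.

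Of 40 genes of autophagy and vacuolar proteases 17 (42.5%) were higher and 7 (17.5%) lower, against 45.8% and 24.7% of all genes. The kinase ATG1, which starts autophagy, had 90.3 to 357 CPM in H6P libraries and 3 counts over the 10 ng libraries, a ratio of 663 with a counting interval of 227 to 3216. ATG19, a receptor of the cytoplasm-to-vacuole pathway, had 114 to 188 CPM in H6P libraries and 0 counts in 10 ng libraries, at least 326-fold higher. PRC1, carboxypeptidase Y, was lower (840 to 1349 CPM in H6P libraries, against 1902 to 3122 CPM in 10 ng libraries). Of 16 phosphate starvation genes 8 (50.0%) were higher and 2 (12.5%) lower, against 45.8% and 24.7% of all genes. The phosphate transporter PHO89 had 404, 1148, 536, 113 and 445 CPM in the H6P libraries, against 0 to 2.70 CPM in 10 ng libraries. Subunits of the polyphosphate polymerase complex split, VTC3 being higher (312 to 536 CPM in H6P libraries, against 0 to 14.6 CPM in 10 ng libraries) and the short subunit VTC1 lower (63.985 to 251 CPM in H6P libraries, against 413 to 945 CPM in 10 ng libraries).

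Of 24 glucose-repressed and alternative carbon genes 13 (54.2%) were higher and 7 (29.2%) lower, near the 45.8% and 24.7% of all genes. The glycerol transporter STL1 had 174 to 1152 CPM in H6P libraries, against 1.16 to 8.25 CPM in 10 ng libraries, and ADH2, the alcohol dehydrogenase that consumes ethanol, had 39.8 to 77.7 CPM in H6P libraries, against 201 to 334 CPM in 10 ng libraries. Cyclins and S phase genes gave 11 higher (61.1%) and 2 lower (11.1%) of 18 tested of 24, against 45.8% and 24.7% of all genes. Of the 18, 2 had 0 counts in all 10 ng libraries and passed the filter only through H6P libraries. Histones gave 2 higher (20.0%) and 3 lower (30.0%) of 10, against 45.8% and 24.7% of all genes. HTB1, histone H2B, had 37.8 to 251 CPM in H6P libraries, against 0 to 8.14 CPM in 10 ng libraries. HHT2, histone H3, had 389 to 982 CPM in H6P libraries, against 1139 to 2026 CPM in 10 ng libraries.

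Mating type markers were read against the label, since S288C is a haploid of mating type alpha. All 4 alpha-cell markers were found in both groups, and none of the 7 a-cell markers passed the filter. The pheromone gene MF(ALPHA)1 had 104, 439, 503, 597 and 441 CPM in the H6P libraries, against 3084 to 4776 CPM in 10 ng libraries. MF(ALPHA)2, STE3 (the a-factor receptor) and SAG1 (alpha-agglutinin) were called lower under TMM (-1.73, -2.09 and -1.95) with overlapping CPM, and had the opposite sign on library totals (0.56, 0.27 and 0.36). The a-cell markers together took 0.00495% to 0.0173% of gene counts in H6P libraries, against 0% to 0.000664% in 10 ng libraries, and their part in the differences was not tested. Of 12 sporulation markers 4 were tested and 2 (50%) were higher, near the 45.8% of all genes. The list took at most 0.000825% of gene counts in any 10 ng library. Its members thus passed the filter only through H6P libraries, and the calls are no support for a difference. The genes called were IME2, the meiotic kinase (123, 90.6, 145, 395 and 0 CPM in the H6P libraries, and 3 counts over the 10 ng libraries), and NDT80, the middle sporulation activator (19.51 to 104 CPM in H6P libraries, and 3 counts over the 10 ng libraries).

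A minority of the genes that were abundant in every H6P library had few counts in 10 ng libraries, and a handful had none. Of 5980 coding genes, 1130 had at least 100 CPM in all H6P libraries, and 332 of these had at least 100 CPM in all 10 ng libraries. Over the 8539364 gene counts of the 10 ng libraries, 189 of the 1130 had under 50 counts and 5 had none: LSB5, MET28, ATG19, KTR6 and GCR1. GCR1 (YPL075W, chromosome XVI, 412254 to 415362) encodes the activator of glycolytic genes and had 459, 304, 324, 318 and 677 CPM in the H6P libraries, at least 865-fold higher against the floor of 3 counts over the group. KTR6, a mannosyltransferase, had 189 to 390 CPM in H6P libraries, at least 538-fold higher. These genes were not missing from the other stated amounts, where GCR1 had 921 counts and MET28 43 counts over the 54 libraries that have a stated amount, the 10 ng libraries included. NAP1, a histone chaperone, had 528, 280, 353, 286 and 370 CPM in the H6P libraries and 1 count over the 10 ng libraries, a ratio of 3018 with a counting interval of 542 to 119200. UBA1, the ubiquitin-activating enzyme, had 134 to 573 CPM in H6P libraries and 1 count, a ratio of 2376 with an interval of 426 to 93840. In the other direction 593 coding genes had at least 100 CPM in all 10 ng libraries, of which 13 had 0 counts in at least 1 H6P library, and each had counts in some H6P library.

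Fold changes followed coding length. The median log2 fold change was -1.63 for 259 genes of up to 400 nt, -1.26 for 399 genes of 400 to 600 nt and -0.30 for 946 genes of 600 to 1000 nt. It was 0.54 for 1096 genes of 1000 to 1500 nt, 1.92 for 768 genes of 1500 to 2000 nt, 3.04 for 722 genes of 2000 to 3000 nt and 3.47 for 469 genes over 3000 nt. Of the genes over 3000 nt 84.2% were higher, against 15.8% of those up to 400 nt. Across genes, which are not independent replicates, fold change had a Spearman rho of 0.54 with coding length and -0.40 with GC content. Genes over 2000 nt took 41.3%, 27.9%, 23.1%, 23.1% and 22.8% of gene counts in the H6P libraries, against 1.68% to 6.85% (median 2.56%) in 10 ng libraries.

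The tested ribosomal protein genes had a median coding length of 435 nt, the glycolytic genes one of 1386 nt and the sulfur genes one of 1524 nt. Genes of 1000 to 1500 nt had a median log2 fold change of 0.54, and the glycolytic genes one of -3.36. MET3 has 1536 nt and was higher, and MET17 has 1335 nt and was lower. The part of length in the counts of each list was not tested.

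**Figure D5:**
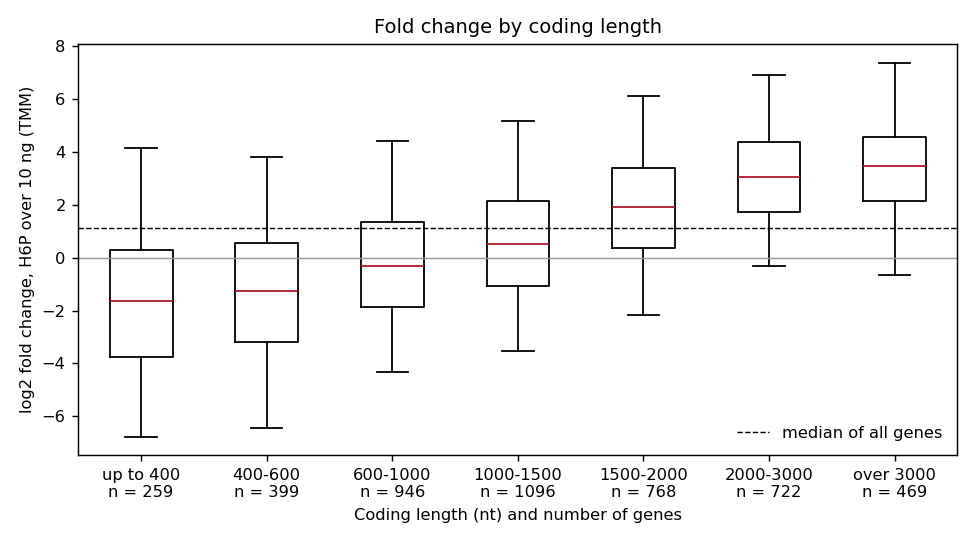
Boxes show the log2 fold change of H6P over 10 ng under TMM for 4659 genes with a coding length, in 7 length classes, with the median in red, the box from the 25th to the 75th percentile and whiskers at the 5th and 95th percentiles; the dashed line is the median of these genes. The class median climbs from -1.63 in the shortest class to 3.47 in the longest.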

How the data were processed

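Each deposited file gives the raw counts of 1 library for genes and spike-ins. The authors aligned reads with STAR 2.5.2 to R64 and counted those that mapped uniquely. HTSeq and RSEM 1.2.31 also stand in the submitters' processing notes. The kit does not mark strand, so overlapping genes are not separated. The 5 summary lines of each file (2.84% to 6.24% of counts in 10 ng libraries, 9.24% to 13.6% in H6P libraries) and the 92 spike-ins did not enter gene totals. Of 6420 genes, 6061 matched the RefSeq annotation of R64.

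Genes with at least 20 CPM in at least 20% of the 14 libraries (at least 3) were tested with edgeR 4.0.16 (TMM, glmQLFit, glmQLFTest); the SE is the absolute log2 fold change over the square root of F. DESeq2 1.42.0, RLE, plain library totals, other filters, thinning to 290000 counts (20 draws for detection), a detection covariate, 2 subsets of the 10 ng libraries and leaving out each library were alternatives. The scripts were tested on simulated data. Counting intervals are exact Poisson intervals of the 10 ng count, and they and the floor of 3 counts cover counting error only, since PCR copies are not independent molecules.

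Groups came from titles. Named were the 12 largest rises and falls without overlap and with a mean log2 CPM of at least 5, the 10 most abundant genes of each group, up to 8 genes a list and the markers, from which the text takes a part. Members and lists were chosen with earlier results of these data known.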

Additional observations from a re-analysis of the deposited data

Results flagged for a closer look

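Among 216 groups of 5 or 9 values checked for 1 value far from the rest, 31 had one. The check gives about 1 in 20 by chance only for normally spread values. Several 10 ng groups were mostly zeros, and for ILV3, HOM3, RPN1, NAP1 and UBA1 a single library held every count. That rate therefore does not apply, and no conclusion is drawn from the number flagged. In H6P libraries these were the spike-in share of H6P12 (7.72%, the others at most 0.0919%), the chaperone share of H6P15 (1.06%), MET3 in H6P12 (3297 CPM), MET28 in H6P15 (419 CPM), ILV3, RPN1 and HEF3 in H6P11 (361, 851 and 295 CPM), ERG6 and ADH2 in H6P16 (308 and 77.7 CPM), and NOP1 and MF(ALPHA)2 in H6P15 (62.1 and 85.2 CPM).

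In 10 ng libraries replicate 5 stood apart most often. It was also the deepest of them (1575402 gene counts, against a median of 923503), and the part of depth in its flags was not tested. It had 2462 genes at equal depth, a count-weighted coding length of 1194 nt, a spike-in share of 45.3%, a stress share of 4.46%, PGK1 at 53.3 CPM, RPS31 at 1275 CPM, MET3 at 11.4 CPM, NQM1 at 5.71 CPM, GDB1 at 3.81 CPM and RPN1 at 2.54 CPM, and a single count each of NAP1 and UBA1 (0.635 CPM). The others were GPM1 in replicate 3 (58017 CPM), GLK1 in replicate 4 (2.17 CPM), SAH1 in replicate 1 (2669 CPM), ILV3 and SKN1 in replicate 7 (1.68 and 3.35 CPM), HOM3 in replicate 6 (0.928 CPM), and PHO89 and IME2 in replicate 9 (2.70 CPM each).

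RNA classes without a poly(A) tail also differed. They were compared in no test of their own above, though their genes stayed in the gene totals. H6P libraries held a median of 3130 counts of snoRNA and snRNA, against 1 to 41 in 10 ng libraries, and a median of 459 counts of tRNA, against 0 to 5, at unequal depth.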

How the results depend on the processing

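Scaling and the detection covariate had the widest effect, although the covariate cannot be told apart from the group. On library totals, a setting chosen after seeing the data, 3676 genes were higher and 378 lower, and with the detection rate as a covariate 213 were higher and 191 lower. Log2 fold changes of the opposite sign arose under RLE and DESeq2 for MET6 (0.054 and 0.055), SUL1 (0.23 and 0.23), MET16 (0.42 and 0.42) and SAM3 (0.21 and 0.21). On library totals they arose for MET6 (1.596), SUL1 (1.69), MET16 (1.97), SAM2 (0.063), CYS4 (0.69), SAM3 (1.73), MF(ALPHA)2 (0.56), STE3 (0.27) and SAG1 (0.36). With the covariate they arose for MET16 (1.72), STR3 (-2.85), SAM3 (0.12), CCW12 (0.27) and MF(ALPHA)2 (0.84), and 45 of the 93 genes named lost their call there.

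Against 10 ng replicates 1 to 4 alone, the share of the other amino acids differed by -0.65 percentage points and that of oxidative phosphorylation by 0.18, neither passing, while the stress share passed (0.60). Against replicates 5 to 10 oxidative phosphorylation differed by 0.13 and did not pass. Outside the glycolytic counts the stress share reversed (-1.26) and that of oxidative phosphorylation was near 0 (-0.0074). Leaving out each library in turn gave 1952 to 2283 genes higher, 1065 to 1247 lower and a stress share difference of 0.29 to 0.48. The cause of these changes was not tested.

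No paired analysis was possible because the H6P numbers share none with the 10 ng numbers. The shallowest 10 ng library held 290434 gene counts. There 3 counts equal 10.3 CPM, so genes well below that level could go undetected in it.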
